A study of Mus musculus with 6 samples.

Results

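The Hoxa cluster was followed through the window chr6:52000000-52400000 (mouse, mm10), which holds Hoxa2, Hoxa3, Hoxa4, Hoxa5, Hoxa6, Hoxa7, Hoxa9, Hoxa10 and Hoxa11. All peaks of 6 ATAC-seq peak lists in this window were merged into 41 regions, of 112852 regions in the whole genome. Regions within 5000 bp of the span from Hoxa2 to Hoxa11 were assigned to the nearest start of these 9 genes (GENCODE M21). The others were counted as flanks. The members were taken by position alone, in a window picked with earlier results of these data known. Chromatin accessibility had been measured in 3 control and 3 MMF-treated samples of L-GMP cells, the leukemia stem cells (LSCs) of a murine MLL-AF9 leukemia. The labels give all 6 samples the genotype WT, the cell type AML LSCs and the tissue blood, and the cells were grown in RPMI1640 with 20% serum and IL3. MMF, mycophenolate mofetil, inhibits inosine monophosphate dehydrogenase and so guanine nucleotide synthesis. The methods give 500 nM for 24 h, the legends give 250 nM for 16 h, and the labels give 24 h. The MLL-AF9 fusion of this model is delivered by a retrovirus to hematopoietic progenitors, and the methods speak in general of biologically independent experiments or samples, without saying for ATAC-seq whether the 3 samples of a group are separate cultures. The p-values therefore measure only the spread between these samples, which may be technical.

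HOXA proteins are homeodomain transcription factors whose genes lie side by side, and all genes of the mouse cluster are read from the minus strand. Going up in coordinate, the cluster runs from 3-prime genes such as Hoxa2 to the 5-prime genes Hoxa11 and Hoxa13. Hoxa9 and its neighbours Hoxa7 and Hoxa10 are known targets of MLL fusion proteins, and HOXA9 acts with TALE cofactors such as MEIS1 and PBX3 to maintain leukemic self-renewal.

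The 4 stretches of reference sequence that follow lie in regions described in the results, and no call rests on them. The first lies in the only region of the window whose summit reads were called lower with MMF. The second covers the part of the Hoxa7 start region upstream of the annotated starts inside that region. Other annotated Hoxa7 starts, such as 52218711, lie farther upstream. The third belongs to the highest peak between Hoxa3 and Hoxa11, and the fourth lies in the region with the largest rise. All 4 show the plus strand of mm10 (GRCm38, RefSeq) around the highest-ranked summit of each region, without annotated untranslated bases. The third thereby leaves out the summit itself, at position 52221822. Capitals mark matches on either strand to CCAAT (NF-Y), TTGCNNAA (C/EBP), CCACNCCC (KLF) or TGACAG (MEIS).
Hoxa3 first intron (chr6:52211640-52211839): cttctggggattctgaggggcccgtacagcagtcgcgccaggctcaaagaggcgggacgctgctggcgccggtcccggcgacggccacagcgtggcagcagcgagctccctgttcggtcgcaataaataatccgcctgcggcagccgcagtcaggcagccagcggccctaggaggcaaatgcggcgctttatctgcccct
Hoxa7 start, upstream part (chr6:52217506-52217699): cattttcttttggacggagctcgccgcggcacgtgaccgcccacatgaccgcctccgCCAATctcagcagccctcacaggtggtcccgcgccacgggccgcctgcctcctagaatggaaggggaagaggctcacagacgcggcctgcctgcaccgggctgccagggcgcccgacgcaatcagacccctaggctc
Between Hoxa7 and Hoxa9 (chr6:52221855-52221921): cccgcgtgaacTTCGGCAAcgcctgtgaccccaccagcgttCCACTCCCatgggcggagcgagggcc
Beyond Halr1 (chr6:52116734-52116933): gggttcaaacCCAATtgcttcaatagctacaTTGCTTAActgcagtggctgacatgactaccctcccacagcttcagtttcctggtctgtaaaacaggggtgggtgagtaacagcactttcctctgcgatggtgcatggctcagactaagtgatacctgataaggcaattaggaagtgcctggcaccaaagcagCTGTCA
The intronic Hoxa3 sequence held none of the 8 motifs searched. The Hoxa7 sequence holds 1 CCAAT, and the sequence between Hoxa7 and Hoxa9 holds 1 C/EBP and 1 KLF match.

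Each list gives the fold enrichment and p of every peak, and both were solved for the reads over its summit and for the local background. Summit reads are given below divided by the genome-wide background of the list, the reads expected over 150 bp, so that a value of 50 stands for 50 times the genome-wide level. The genome-wide background was between 0.620 and 0.729 reads in control and between 0.676 and 0.909 in MMF samples, and the control lists held between 58496 and 63911 peaks against between 80893 and 86556 in MMF lists. The study sorted L-GMPs from leukemic mice before culture, as GFP+ cells of the GMP phenotype, with antibodies against lineage markers of T, B, erythroid and granulocytic cells. For ATAC-seq, cells were sorted again after the treatment, and the methods name no gate for that sort. Of the marker genes of other cells, none of the 4 T-cell genes had a promoter peak in any list, and of the B-cell genes only Cd79b had one, in 2 MMF lists. Kit, Spi1 and Cebpa had a promoter peak in all 6 lists, Cd34, Fcgr3, Fcgr2b and Elane in some, Mpo had none, and Klf1 of the erythroid list and Col1a1 and Pdgfra of the stromal list had one in all 6. With genes without a listed peak taken as 0, the summed promoter level of the 4 genes of the L-GMP gate (Kit, Cd34, Fcgr3 and Fcgr2b) was between 60.4 and 111 in control and between 124 and 163 in MMF samples. These sums depend on which peaks were listed. Fcgr3 was listed in 1 control and 3 MMF lists, Fcgr2b in 2 and 3, and Cd34 in 3 and 2. Kit, the only gate gene listed in all samples, overlapped between the groups. The summed level of the 4 myeloid genes was between 181 and 226 in control and between 210 and 228 in MMF samples. Within it the Spi1 mean was 52.9 in control and 74.1 with MMF, and the Cebpa mean 138 and 111. The summed level of the 4 erythroid genes was between 122 and 150 in control and between 130 and 136 in MMF samples, and that of the 2 stromal genes between 61.7 and 83.8 and between 44.3 and 62.3. The part of these differences in the results was not tested.

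The window held 26, 29 and 22 peaks in the control lists and 31, 29 and 33 in the MMF lists. Means were 25.7 ± 3.51 peaks in control and 31 ± 2 with MMF (SD, n = 3), and both groups included a list of 29 peaks. A two-sided exact permutation test gave p = 0.2, and 0.1 is the lowest value it can give for 3 against 3. As a share of the list, the window held 0.0417% ± 0.00463 of the control peaks and 0.0368% ± 0.00365 of the MMF peaks (SD, n = 3, two-sided exact permutation p = 0.3). With lists of equal length both means were 24 peaks.

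Of the 41 regions, 18 had a peak in all 6 lists (43.9%, against 36.5% of all regions), 2 were gained, with a peak in all MMF and no control lists (against 6% of all regions), and 1 was lost (against 0.182%). Another 9 regions were found in a single list. Within 5000 bp of the span from Hoxa2 to Hoxa11 lay 16 regions, 10 of them shared, and the flanks held 25, 8 of them shared. The peaks were not spread evenly over the genes. No list had a peak in a gap of 32.4 kb that ends at position 52191374 and holds Hoxa2 and the coding exons of Hoxa3. A second gap of 19 kb, from 52192453 to 52211428, holds the starts of Hoxa5 and Hoxa6. Between Hoxa3 and Hoxa10 the regions stood close together.

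**Figure D1:**
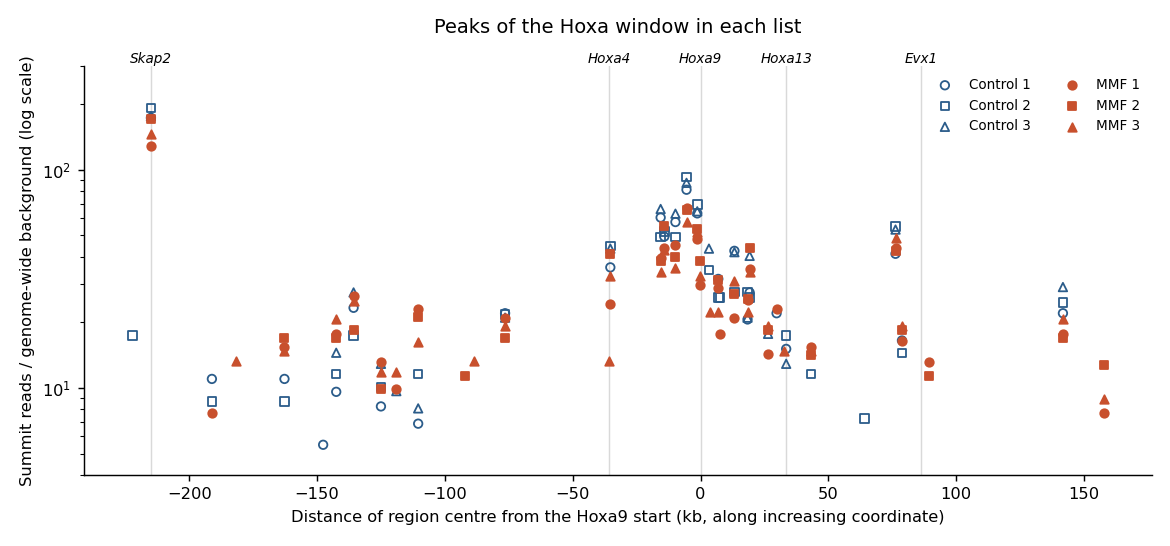
Depth-scaled summit reads, in multiples of the genome-wide background (vertical, log scale), of the peaks of the window against the distance of its region from the Hoxa9 start (horizontal, kb), with open blue symbols for the 3 control and filled red symbols for the 3 MMF lists. The peaks at Skap2 are the highest, those between Hoxa7 and Hoxa9 are the highest between Hoxa3 and Hoxa11, and 1 of the 41 regions is left out.

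The 9 genes differed in whether their start carried a peak at all. A peak within 1000 bp of the start was found in all 6 lists for 4 of the 9 genes, Hoxa3, Hoxa4, Hoxa7 and Hoxa11, against 49.5% of all protein-coding genes. Hoxa2, Hoxa5 and Hoxa6 had none in any list, as did 40.4% of all protein-coding genes. At Hoxa9 and Hoxa10 the peak was listed in some samples only. Hoxa7, whose protein is coexpressed with HOXA9 in MLL-rearranged leukemia, was the only one of the 4 with every MMF sample below every control sample. This was so for 17.8% of the 10813 genes with a promoter peak in all 6 lists, over which the median log2 difference was -0.10.

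The Hoxa7 promoter stood at 57.6, 49.2 and 62.9 times the genome-wide background in control and at 45.1, 39.7 and 35.5 with MMF. Its mean was 56.6 ± 6.92 in control and 40.1 ± 4.82 with MMF (SD, n = 3), a log2 difference of -0.50 (two-sided exact permutation p = 0.1, the lowest it can give). The Hoxa3 promoter stood at 49.4, 52.1 and 54.8 in control and at 44, 55.2 and 42.9 with MMF, and the groups overlapped through MMF 2. At the Hoxa4 promoter the values were 35.7, 44.8 and 43.5 in control and 24.2, 41.1 and 32.5 with MMF. The Hoxa4 groups overlapped too, and their log2 difference was -0.37 (two-sided exact permutation p = 0.2), which ranged from -0.55 without MMF 2 to -0.17 without MMF 1. Hoxa11, the most 5-prime of the 9 genes, had 27.4, 27.5 and 40.3 in control and 35.2, 43.9 and 34 with MMF, a log2 difference of 0.26 with overlapping groups (two-sided exact permutation p = 0.3). The Hoxa11 difference was 0.09 with 500 bp on either side of the start, and it ranged from 0.15 without MMF 2 to 0.45 without Control 3. After each sample was centred on its median it turned to -0.09, and those of Hoxa7, Hoxa3 and Hoxa4 were -0.85, -0.50 and -0.72. In control samples the levels ran downward in the order Hoxa7, Hoxa3, Hoxa4 and Hoxa11, and only Hoxa3 and Hoxa4 did not overlap among neighbours in that order. With MMF the order was Hoxa3, Hoxa7, Hoxa11 and Hoxa4, and all neighbours in it overlapped.

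Hoxa9 is annotated with 2 protein-coding starts. Its principal start, at 52227370, carried a peak (chr6:52226923-52227200, in the first exon) in none of the control lists, and with MMF it stood at 29.7, 38.2 and 32.5 times the genome-wide background. This gained region has to be read with the height that a peak needed to be listed. At the background of the adjoining region, a p of the listed strength (a −log10 p of 3) required 28.8, 30.4 and 32.2 times the genome-wide background in control but 20.9, 22.7 and 22.2 with MMF. With MMF the background of the gained region itself was 7.52, 8.22 and 7.76, against 9.44, 9.92 and 9.38 at the adjoining one. The heights required at the gained region may therefore have been lower. By the heights given, MMF 1 stood within the range required in control, and MMF 3 and MMF 2 above it. Control values below these heights are not known. At the internal Hoxa9 start, 52226189, all lists had a peak (chr6:52225836-52226347). It stood at 63.1, 69.4 and 64.5 in control and at 48.4, 53.8 and 51.7 with MMF, with no overlap (log2 difference -0.36, SE 0.16, limma adjusted p = 0.149).

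At the principal Hoxa10 start, a region inside the first exon (chr6:52233955-52234669) was listed at 31.6 and 26 in 2 control samples and at 28.6, 31.2 and 22.2 with MMF. The smaller region on the start itself (chr6:52234917-52235125) was listed in Control 2 at 26 and in MMF 1 at 17.6. The upstream Hoxa10 start had a region in all lists (chr6:52240375-52240856), at 42.5, 27.5 and 41.9 in control and 20.9, 26.9 and 31 with MMF. These values overlapped (log2 difference -0.50, SE 0.23, limma adjusted p = 0.156). When the highest peak at any protein-coding start was taken, 6 of the 9 genes had a promoter peak in all lists. Hoxa9 then joined Hoxa7 as the second gene with every MMF sample below every control sample. The shares of all genes given above count only the principal start of each gene, so these counts have no share beside them.

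**Figure D2:**
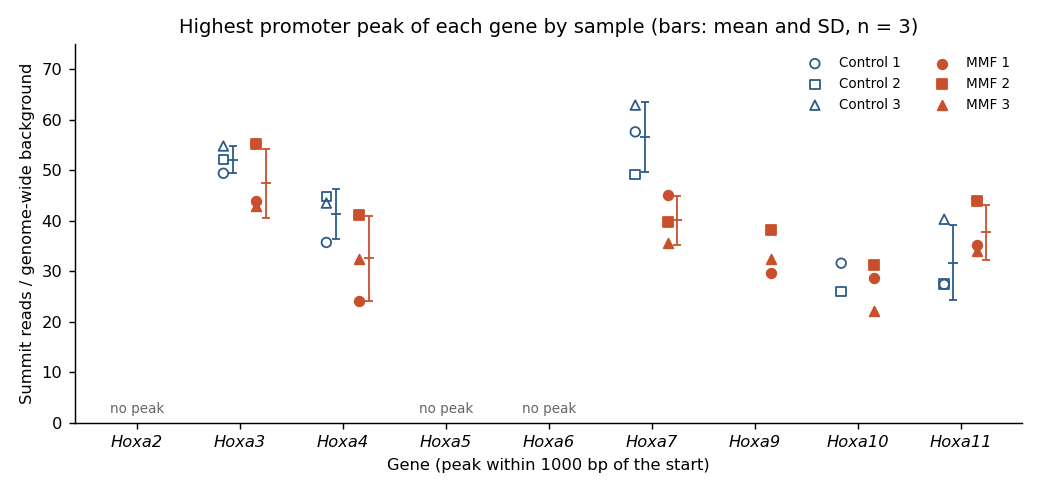
Depth-scaled summit reads, in multiples of the genome-wide background (vertical), of the highest peak within 1000 bp of the start of each of the 9 genes (horizontal), with 1 symbol per sample and the mean and SD beside them where all 6 lists had a peak. Hoxa2, Hoxa5 and Hoxa6 have no peak, Hoxa9 has symbols for MMF only, and Hoxa7 is the gene whose groups do not overlap.

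Over the 18 shared regions, limma on log2 summit reads called 1 region lower and 2 higher with MMF (0.964% and 18.7% of all 41182 shared regions). The median log2 difference of the 18 was -0.19, against 0.16 over all shared regions. It was -0.36 for the 10 regions of the cluster and -0.04 for the 8 flanking ones. Without overlap between the groups, 7 of the 18 regions were lower and 2 higher with MMF, against 7.48% and 29.1% of all shared regions. The direction of such counts depends on scaling. After each sample was centred on its median, 10 of the 18 regions were called lower and 1 higher, while the calls over all shared regions went from 397 lower and 7701 higher to 5524 lower (13.4%) and 2842 higher (6.9%).

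The region called lower lies in the first intron of Hoxa3, 1352 bp downstream of its start (chr6:52211428-52212098), and also in Hoxaas3, an antisense gene. Its summit reads were 60.4, 49.2 and 66.1 times the genome-wide background in control and 39.6, 38.2 and 34 with MMF. All MMF values were below all control values, and they fell by 0.64 on the log2 scale (SE 0.18, 1.56-fold, limma adjusted p = 0.0292). The call held without Control 2 and was lost without any other single sample (limma adjusted p between 0.0605 and 0.0927). Its neighbour on the Hoxa3 start (chr6:52212780-52213595) differed by -0.15 (SE 0.17, adjusted p = 0.61, limma). The highest peak between Hoxa3 and Hoxa11 lies between Hoxa7 and Hoxa9 (chr6:52221471-52222281), at the first exon of a longer Hoxa7 transcript. It stood at 81, 92.6 and 87.1 in control and at 67.1, 65.2 and 57.7 with MMF, without overlap (log2 difference -0.46, SE 0.16, limma adjusted p = 0.0761). At the Hoxa7 start region (chr6:52217396-52217694) the adjusted p of the same limma test was 0.0772.

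Both regions called higher lie in the 3-prime flank and assign to no listed gene. The first (chr6:52116685-52117128) lies beyond the end of Halr1, a noncoding gene. Its summit reads were 6.86, 11.6 and 8.06 times the genome-wide background in control and 23.1, 21.2 and 16.3 with MMF, a rise of 1.21 on the log2 scale (SE 0.23, 2.32-fold, limma adjusted p = 0.00554). This call held without each sample in turn (limma adjusted p between 0.00458 and 0.026). These are small peaks of 5, 8 and 5 reads in control and 21, 15 and 11 reads with MMF. Limma on percentile ranks of fold enrichment called this region alone (adjusted p = 0.0391, where 5.83% of shared regions were called higher and 0.185% lower), but the ranks come from lists of unequal length. No region was called by rank with lists of equal length, with a −log10 q of at least 2 or with the replicate block, and the call was also lost without any sample but Control 2 (limma adjusted p between 0.073 and 0.125). The second (chr6:52084672-52085035) stood at 9.6, 11.6 and 14.5 in control and at 17.6, 17 and 20.7 with MMF, a rise of 0.65 (SE 0.20, limma adjusted p = 0.0411) that was called without Control 3 and lost without any other sample (limma adjusted p between 0.0752 and 0.131). It lies 72304 bp from the Skap2 start. The third largest rise was near Hoxa11 (chr6:52246346-52246802, log2 difference 0.29, limma adjusted p = 0.381).

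The neighbours of the 9 genes varied. Skap2, which encodes an adaptor protein of myeloid cells, had the highest peak of the window (chr6:52011613-52013117), at 173, 192 and 176 in control and 129, 171 and 146 with MMF (log2 difference -0.29, SE 0.17, limma adjusted p = 0.291). The lost region lies on the Hoxa13 start (chr6:52260673-52261073) and was listed in control at 15.1, 17.4 and 12.9, from 11, 12 and 8 reads. An adjacent peak of 14.8 was listed in MMF 3. The second gained region (chr6:52384953-52385352), 71600 bp from Evx1, was listed at 7.7, 12.7 and 8.87 with MMF, from 7, 9 and 6 reads. These are small peaks, and the values of samples without a listed peak are not known. No list had a peak within 1000 bp of the Evx1 start.

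The local background was the measure by which most regions of the window were called. Above the genome-wide level, the solved values came in whole reads per 10 kb. They are read here as the reads in the 10 kb around a summit, those of the peaks included, a window inferred from these steps and stated in no source used here. Across all shared regions with a mean of at least 1.5 times the genome-wide level, limma called 2511 of 27773 lower (9.04%) and 8025 higher (28.9%), with a median log2 difference of 0.06. In the Hoxa window 9 of 12 such regions were called lower and none higher, and the median log2 difference was -0.42. At an unadjusted p under 0.05 the counts were the same, 9 lower and 0 higher. With each sample centred on its median, 10 of the 12 were lower, against 6755 lower (24.3%) and 5357 higher (19.3%) of all 27773. Without MMF 1, 6 of the 12 were called lower. The 12 windows are not independent, since those of neighbouring regions overlap.

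In control samples the block from the Hoxa7 start to the internal Hoxa9 start was the part of the cluster with the highest background. At the internal Hoxa9 start the 10-kb background was 13.9, 14 and 14.7 times the genome-wide level in control and 9.44, 9.92 and 9.38 with MMF. This rested on 675, 646 and 609 reads in control and 572, 467 and 423 with MMF. The highest MMF value was below the lowest control value, and the background fell by 0.57 on the log2 scale (SE 0.08, 1.48-fold, limma adjusted p = 0.000186). Between Hoxa7 and Hoxa9 it was 13.4, 13.5 and 14.3 in control and 9.6, 8.86 and 9.25 with MMF, and it fell by 0.57 on the log2 scale (SE 0.08, limma adjusted p = 0.000197). At the Hoxa7 start it was 13.4, 13.7 and 13.4 in control and 9.37, 8.16 and 9.02 with MMF, and it fell by 0.61 on the log2 scale (SE 0.08, limma adjusted p = 0.000168).

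Toward the 3-prime side the level was lower. On the Hoxa3 start the 10-kb background was 10.1, 9.7 and 9.8 in control and 6.38, 5.8 and 6.47 with MMF, and it fell by 0.67 on the log2 scale (SE 0.08, limma adjusted p = 8.57e-05). In the Hoxa3 intron it was 7.55, 7.14 and 7.06 in control and 4.49, 4.27 and 4.43 with MMF, and it fell by 0.72 on the log2 scale (SE 0.08, 1.65-fold, limma adjusted p = 4.42e-05). The 10 kb around this summit also hold the start of Hoxa6, which had no peak of its own, and share no base with the 10 kb around the peak between Hoxa7 and Hoxa9. In these 5 regions every MMF value was below every control value, as in 16.6% of the 27773 regions tested. Only 78 of the 27773 regions tested had a larger fall than the Hoxa3 intron, and 187 (0.673%) had a fall at least as large as the smallest of the 5. The 5 regions had means between 5.82 and 11.9, and of all 6142 regions with a mean between 5 and 12, 14% were called lower and 13.5% higher, with a median log2 difference of -0.06.

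The level was lower again at the Hoxa4 start and at the upstream Hoxa10 start. The Hoxa4 start had 2.41, 2.65 and 2.9 in control and 1.67, 2.15 and 2.24 with MMF, and the background fell by 0.40 on the log2 scale (SE 0.12, limma adjusted p = 0.0175). The upstream Hoxa10 start had 2.82, 3.17 and 3.65 in control and 2.34, 2.4 and 2.37 with MMF, and it fell by 0.43 on the log2 scale (SE 0.10, limma adjusted p = 0.00474). The Skap2 region lies outside the cluster and was not low, with 9.34, 10.1 and 8.93 in control and 7.64, 7.86 and 8.03 with MMF. Its background fell by 0.27 on the log2 scale (SE 0.08, limma adjusted p = 0.0213). The Hoxa4 call was lost without Control 3 or MMF 1 and the Skap2 call without Control 2, MMF 1 or MMF 2, with limma adjusted p up to 0.0709 and 0.078. The 6 regions from the Hoxa3 intron to the upstream Hoxa10 start were called without each sample in turn. At the Hoxa11 start the values were 3.79, 3.77 and 4.64 in control and 3.88, 4.12 and 3.7 with MMF. These overlapped, with a log2 difference of -0.06 (SE 0.10, limma adjusted p = 0.683), and the region next to it differed by 0.11 (SE 0.08, adjusted p = 0.293, limma).

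**Figure D3:**
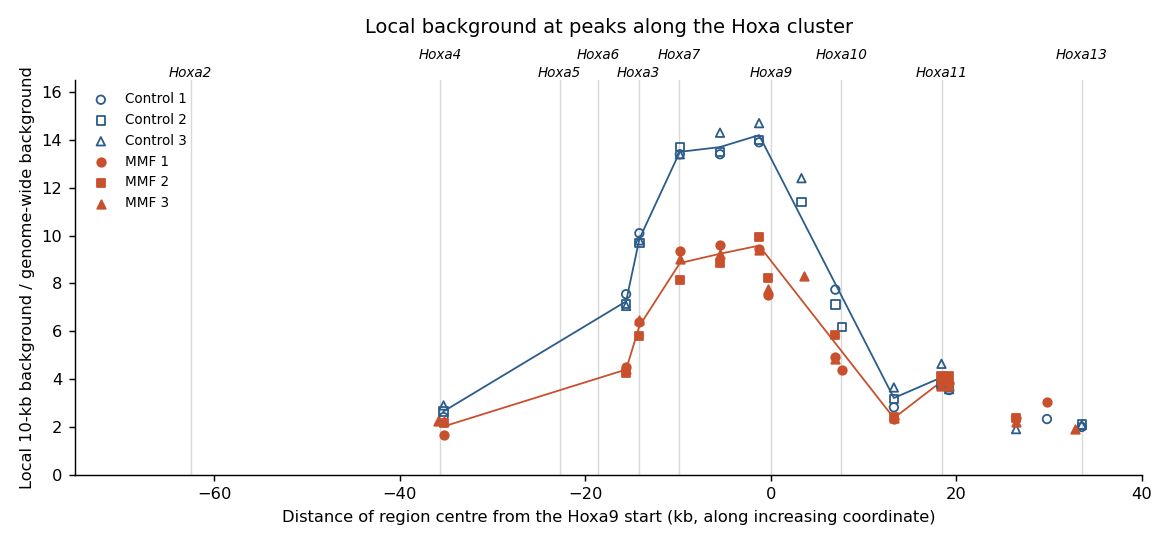
Local 10-kb background divided by the genome-wide background (vertical) at the peaks drawn, against the distance from the Hoxa9 start (horizontal, kb), with 1 symbol per sample and lines through the group means of regions shared by all lists. The MMF symbols lie below the control symbols from Hoxa3 to Hoxa10 and mix with them at Hoxa11, and 1 region is left out.

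The difference between places in the cluster was set out without any scaling to depth, as a ratio within each sample, chosen after the values had been seen. The 10-kb background at the internal Hoxa9 start was 3.67, 3.71 and 3.17 times that at the Hoxa11 start in control and 2.43, 2.41 and 2.53 times with MMF. The means were 3.52 ± 0.300 and 2.46 ± 0.0662 (SD, n = 3). Both places were picked for their values, so the ratio is a description and the p of its exact permutation test is left out.

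Fold enrichment, the peak over its own local background, did not follow these falls. By limma on log2 fold enrichment, 0 of the 18 shared regions were called lower and 2 higher (0.236% and 11.3% of all shared regions), and at an unadjusted p under 0.05 the counts were 0 lower and 3 higher. The median log2 difference of the 18 was 0.07, against 0.16 over all shared regions. At the Hoxa3 intron the fold enrichment was 6.87 ± 0.955 in control and 6.75 ± 0.67 with MMF, and at the internal Hoxa9 start 4.28 ± 0.274 and 4.82 ± 0.11 (SD, n = 3). At the Hoxa3 intron summit reads differed by -0.64 and the surrounding 10 kb by -0.72 on the log2 scale, and at the internal Hoxa9 start by -0.36 and -0.57.

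**Figure D4:**
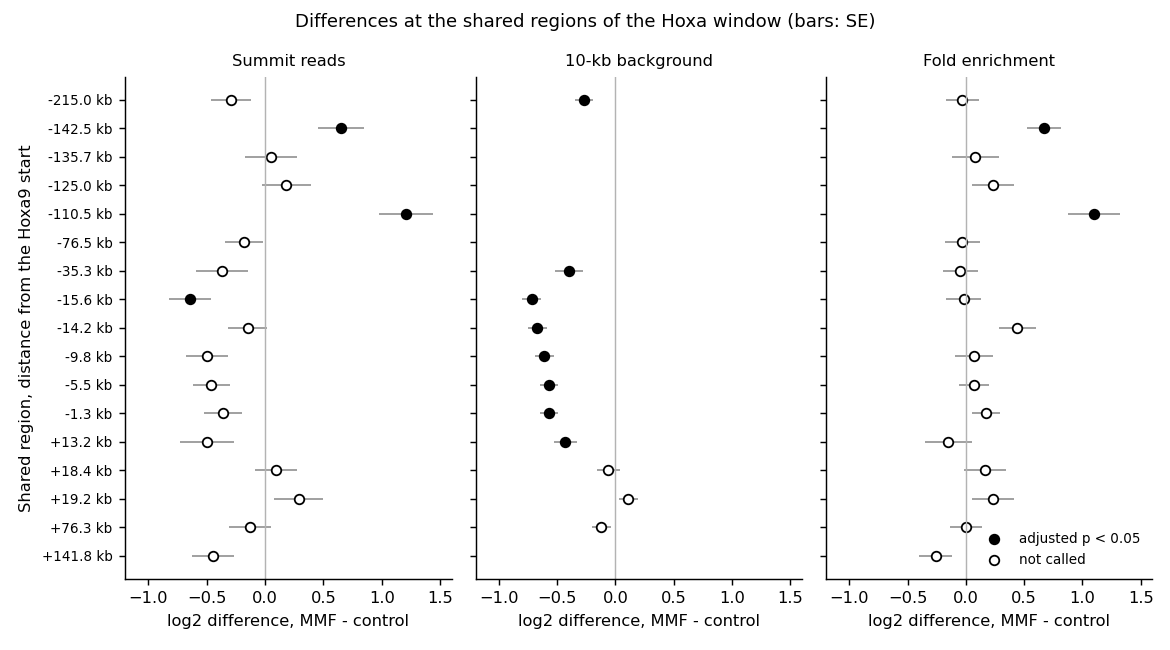
Log2 difference, MMF minus control, with its SE (horizontal) for summit reads, 10-kb background and fold enrichment at 17 of the 18 regions found in all lists, ordered by distance from the Hoxa9 start (vertical). Filled circles have a limma adjusted p under 0.05, 6 regions with a mean background under 1.5 have no value in the middle panel, and the 5 regions from -15.6 to -1.3 kb show the largest falls there and no call in fold enrichment.

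The other Hox clusters held few shared regions. By the same measure of span plus 5000 bp, Hoxb held 16 regions with 5 shared, Hoxc 13 with 1 shared and Hoxd 14 with 1 shared, and the span of the listed Hoxa genes 16 with 10 shared. Among shared regions the highest mean 10-kb background of control samples was 14.2 in Hoxa, 2.1 in Hoxb, 1.48 in Hoxc and 1.1 in Hoxd. In Hoxb 2 regions could be tested on the background and neither was called, and in Hoxc 1 was tested and called higher. Of the 9 TALE cofactor genes, 4 had a promoter peak in all lists, and Meis1 and Pbx3 had every MMF value below every control value, as did 17.8% of all genes with a promoter peak in all lists. The Meis1 promoter stood at 104 ± 16.1 in control and 78.1 ± 1.23 with MMF (SD, n = 3), a log2 difference of -0.40. Pbx4 overlapped between the groups.

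Many shared regions of the window were rich in CpG. In the 200 bp around the summit, 13 of the 18 had a ratio of observed to expected CpG above 0.6, against 27.6% of all shared regions, and the median GC content was 55.5% against 52%. CCAAT, the NF-Y box, was found in 9 of the 18, against 24.9% of all shared regions, among them the regions at the starts of Skap2, Hoxa3, Hoxa4 and Hoxa7 and at the internal Hoxa9 start. TTGCNNAA (C/EBP) was found in 4 of the 18 (14.5% of all shared regions) and CCACNCCC (KLF) in 3 (11.1%). TGACAG (MEIS) and TGATTNAT (PBX-HOX) were found in 1 each (15.4% and 2.81%). GAGGAAGT (PU.1), AACCACA (RUNX) and the CTCF core were found in 0 of the 18, and in 8.19%, 10.3% and 6.62% of all shared regions. None of these motifs contains another, and a match describes letters in a window, not a bound site. Motif shares over shared regions of like CpG content were not computed.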

How the data were processed

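ATAC-seq peaks of 3 control and 3 MMF-treated samples were used, grouped by the sample labels. Per the submitters' processing notes, reads were handled with FastQC, Trim Galore, Bowtie2 and MACS2 on mm10, and peaks were called on each sample separately. The deposited lists give a fold enrichment (the ratio of summit to local background), −log10 p-values and q-values, and a score that was not used. The authors' PePr comparison of the reads was not repeated here. Peaks on the autosomes, X and Y were kept and merged at an overlap of at least 1 bp.

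Summit reads and local background were solved from the fold enrichment, taken as (reads + 1) / (background + 1), and the Poisson p, which gave whole reads (within 0.02) for 99.8% or more of each list. Backgrounds above the genome-wide value were whole reads per 10 kb (within 0.05 of a read) for 100% of the peaks with under 100 summit reads in every list, and the 10-kb window was inferred from this. Depth per list is given by the genome-wide background, and a median peak had 14 to 19 summit reads, which leaves weak peaks imprecise. Only called peaks have values.

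For regions with a peak in every list, limma 3.58.1 (lmFit, eBayes, R 4.3.3) was fitted to log2 values or to normal scores of percentile ranks by fold enrichment, over all such regions and at a Benjamini-Hochberg adjusted p of 0.05. Every adjusted p comes from these fits. On simulated data with 200 of 41182 regions shifted, the same test called 0 of them at a log2 shift of 1 for summit reads. With 200 of 27773 shifted, it called 196 of them at 1 and 68 at 0.5 for the 10-kb background. In the data 7701 shared regions were called higher on summit reads, so the adjusted cut-off was less strict than in the simulation. The simulation therefore does not give the power of the test in these data. Single values were compared by exact permutation tests in scipy 1.17.1 under Python 3.11.15. Sequences were read with pysam 0.24.0.

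Regions named were those at the starts of the 9 genes, all gained, lost and called regions, the 5 highest shared regions, and the 3 largest rises and falls by summit reads. The members and lists were chosen with earlier results of these data known, and the 10-kb background was added as a measure after the values had been seen. Alternatives covered the ranking measure, list length, a stricter q, centring, overlap, promoter width, starts, each sample left out and the replicate number as a block. A region, a few genes and the smaller of 2 background ratio differences computed are not reported here.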

Additional observations from a re-analysis of the deposited data

How the results depend on the processing

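Equal list length and the stricter q were not run for the 10-kb background. Its 9 regions called lower were 8 without a minimum background, 10 after centring, 9 with the replicate block and between 6 and 9 with single samples left out, and the 5 regions from the Hoxa3 intron to the internal Hoxa9 start were called in each of these fits. The single region called higher by rank became 2 when ranked by −log10 p and 0 with equal list length, a −log10 q of at least 2, peaks required to cover most of the region (a 0.5 share or more), ranks taken again among shared regions, or the replicate block, and between 0 and 1 without single samples. No region was called lower by rank under any of these. For summit reads, the 2 regions called higher became 1 after centring, with equal list length and with the stricter q, and stayed between 1 and 2 without single samples. The 1 called lower became 10 after centring and 0 by fold enrichment or with the replicate block, and between 0 and 1 without single samples. Same-numbered samples deviated together with correlations between -0.001 and 0.019. No pairing by replicate number was visible, but low correlations between noisy values cannot exclude it. The median log2 difference of summit reads moved from -0.19 to -0.54 after centring, reversed to 0.07 by fold enrichment, and ranged from -0.25 to -0.14 without single samples. The median rank difference of 1.57 points (4.07 over all shared regions) reversed to -0.208 when ranked by −log10 p and to -9.57 with equal list length (4.93 and -2.16 over all shared regions), and ranged from 0.516 to 2.68 without single samples. The excess of 5.33 peaks in MMF lists was 0 with equal list length and 6 with the stricter q, and from 3.5 to 7 without single samples. Promoters with every MMF sample below were 3 after centring, 0 by percentile rank, where Hoxa7 reversed to 2.08 points higher, 2 over all starts and between 1 and 3 without single samples. A larger overlap asked of the peak itself changed nothing, since every peak lies inside its region. The cause of these changes was not tested. A median peak rested on 14 to 19 summit reads, and the effect of depth itself was not tested.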
